A study of Homo sapiens with 3 samples.

Results

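The zinc-finger gene clusters of human chromosome 19 were described from a list of CREBBP peaks and a list of H3K27ac regions of SC1, a human lymphoma cell line labelled as diffuse large B-cell lymphoma. The members were all intervals that overlap 4 stretches of chromosome 19 on hg19, at chr19:19800000-24500000, chr19:36600000-38300000, chr19:44300000-45000000 and chr19:52500000-59100000, here called the first to the fourth cluster. They were 226 of 18263 H3K27ac regions and 1189 of 215598 CREBBP peaks on chromosomes 1 to 22 and X. The rest of chromosome 19 held 891 regions and 2706 peaks, and no interval crossed a cluster boundary. The groups were 1 chromatin immunoprecipitation with an antibody to CREBBP, 1 with an antibody to H3K27ac and 1 input without antibody, all from SC1 cells in RPMI1640 medium with serum. The names of the intervals include DMSO and rep2, terms the labels leave unexplained, and the input was not analysed here. Each group held 1 sample of 1 cell line, so no test between cultures was possible and no p-value is given. The 95% intervals cover counting error only and treat intervals as independent.

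Positions are on hg19 and counted from 1. Most genes of these clusters encode C2H2 zinc-finger proteins, many with a KRAB domain, which recruits the corepressor TRIM28 and so heterochromatin to the sites that the fingers bind, often in transposable elements. The genes arose by tandem duplication, stand in rows of alike genes, and are known for heterochromatin over their bodies beside active promoters. H3K27ac, the acetylation of lysine 27 on histone H3, marks active promoters and enhancers, and CREBBP is one of the acetyltransferases that deposits it. The gene table at hand is of another assembly, GRCh38.p14, so no interval was assigned to a gene, the label of the clusters could not be checked by position, and no marker of B cells could be looked up. By gene order alone, that RefSeq table placed 265 of 566 protein-coding genes with zinc-finger symbols on chromosome 19, 46.8%, and 241 of them next to another one. The longest unbroken row on the chromosome, 27 genes, ran from ZNF737 to ZNF681. A row of 24 genes from ZNF627 to ZNF791 is known from another part of the short arm, so the rest of the chromosome is not free of zinc-finger genes. The fourth cluster also holds other families, among them the leukocyte and killer-cell immunoglobulin-like receptors, and the imprinted gene PEG3.

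The H3K27ac regions of the clusters were narrow. Their median width was 1075.5 bp, with the middle 50% of regions between 789 and 1517 bp. In the rest of chromosome 19 it was 1457 bp, with the middle 50% between 956 and 2079 bp, a ratio of 0.738 (0.668 to 0.794 from the order-statistic interval of the cluster median). The medians were 1016.5 bp in the first cluster, 1149 bp in the second, 574 bp over the 9 regions of the third and 1145.5 bp in the fourth. The 4 stretches before and between the clusters had medians of 1400, 1495.5, 1504 and 1569 bp. The clusters and the stretches therefore did not overlap in median width. Each cluster's median was also below that of each of the 22 other chromosomes, which ran from 1358 bp on chromosome 1 to 1591 bp on chromosome 18. Regions under 1 kb made up 44.7% of the cluster regions (101 of 226, 95% interval 38.1 to 51.4%) and 27.7% of the others (247 of 891, 24.8 to 30.8%), a difference of 17.0 percentage points (9.94 to 24.1). Regions of at least 3 kb made up 3.98% (9 of 226, 1.84 to 7.42%) against 11.9% (106 of 891, 9.84 to 14.2%).

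The fold enrichment of the pooled cluster regions, as the authors' list gives it, did not differ from the rest beyond counting error. Its median was 4.80 in the clusters (interquartile range 3.10 to 7.69) and 4.93 in the rest (3.25 to 7.87), a ratio of 0.974 (0.849 to 1.09). The cluster medians were 3.94, 4.22, 10.1 and 5.08 in their order along the chromosome, and the stretches between lay from 4.42 to 5.44. A fold of at least 10 was reached by 39 cluster regions, 17.3% (12.6 to 22.8%), and by 126 of the others, 14.1% (11.9 to 16.6%), and the interval of this difference, -1.89 to 8.98 percentage points, includes 0. The single clusters differed in this share, with 11.5% (6 of 52), 5.71% (2 of 35), 55.6% (5 of 9) and 20% (26 of 130) in order. Among these regions of high fold, 51.3% were under 1 kb wide in the clusters (20 of 39) and 26.98% in the rest (34 of 126), a difference of 24.3 percentage points (7.06 to 40.7). The narrowness was seen in each class when the regions of chromosome 19 were split into 4 equal classes by fold. In the lowest class the median width was 994.5 bp in the clusters and 1239 bp in the rest, and in the second class 1318 and 1445 bp. In the third class it was 1038.5 and 1591 bp, and in the highest 997.5 and 1516.5 bp. In the second class the interval of the cluster median, 1172 to 1577 bp, included the value of the rest, and in the other classes it did not. Across regions, width and fold had a Spearman rho of 0.033 in the clusters (226 regions) and 0.14 in the rest (891 regions). These regions come from 1 library and are not replicates.

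**Figure D1:**
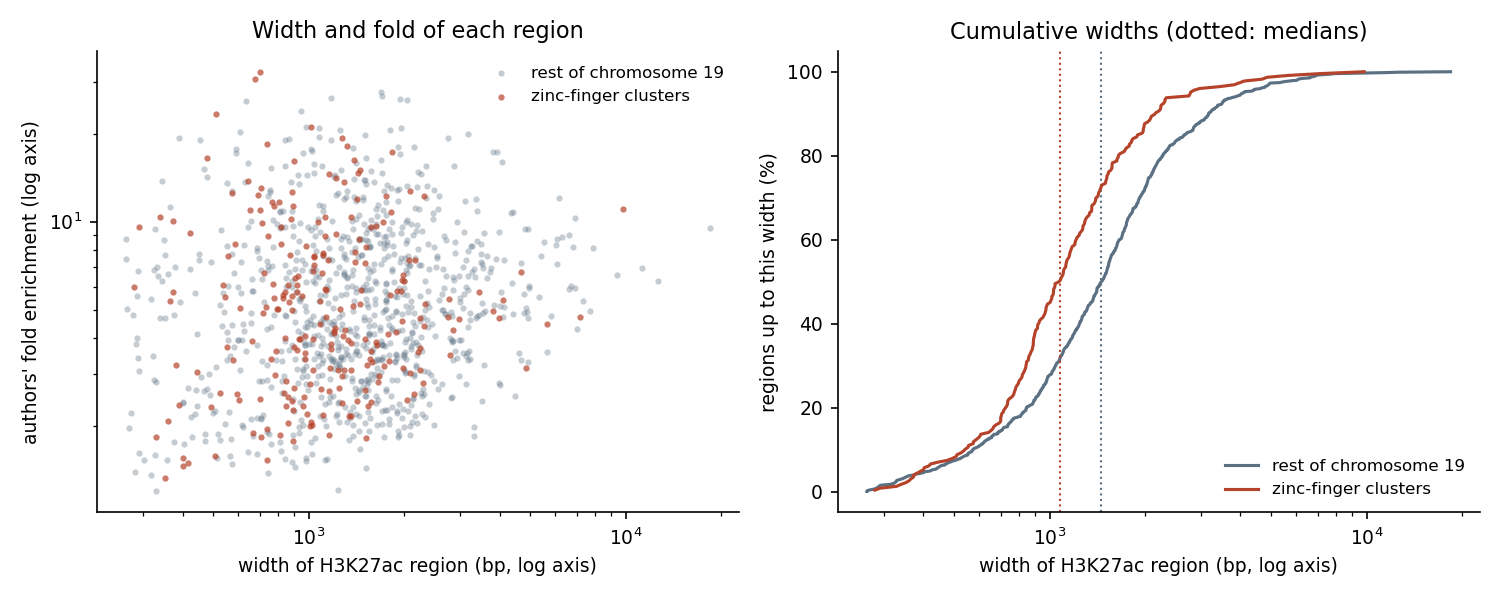
Width and authors' fold enrichment of the 226 H3K27ac regions in the zinc-finger clusters (red) and the 891 in the rest of chromosome 19 (grey), 1 point per region on log axes at left, and the cumulative share of regions by width at right. The red curve lies left of the grey one over most widths, with medians of 1075.5 and 1457 bp, while both clouds span like ranges of fold.

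The 2 H3K27ac regions with the largest folds on chromosome 19 were short ones of the fourth cluster. A fold of at least 20 was about as common in the clusters, 1.77% (4 of 226, 0.484 to 4.47%), as in the rest, 1.46% (13 of 891, 0.779 to 2.48%). The region at chr19:57998997-57999697 was 701 bp wide with a fold of 32.6, which ranked it 1 on the chromosome and 28 among all 18263 regions. The region at chr19:58011168-58011843, 676 bp wide, had a fold of 30.8 and ranked 2 and 41. Only the former held a CREBBP peak, with a q above 0.05. In the third cluster the region at chr19:44617537-44618046, 510 bp wide, had a fold of 23.4 and ranked 10 on the chromosome. The region at chr19:44668880-44669895, 1016 bp wide, had a fold of 21.1 and ranked 11. Both held a CREBBP peak. In the first cluster the largest folds were 19.4 at chr19:20162446-20163719 and 14.997 at chr19:20613849-20615294, and neither region held a CREBBP peak. In the second cluster they were 11.4 at chr19:36869548-36870436 and 11.3 at chr19:36871996-36872774, 889 and 779 bp wide, and neither held a CREBBP peak. The strongest regions of each cluster were thus between 510 and 1446 bp wide.

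Wide regions were few and differed between the clusters. The widest, 9829 bp at chr19:20377638-20387466 in the first cluster, had a fold of 11.0 and held 2 CREBBP peaks. The next in that cluster, at chr19:20370483-20374451, was 3969 bp wide, lay beside it and also held 2, and the third, at chr19:20626097-20628406, was 2310 bp wide and held none. In the second cluster the widest was 4679 bp at chr19:36979620-36984298, with a fold of 6.72 and 2 CREBBP peaks. It was followed by regions of 2239 bp at chr19:36604897-36607135 with no CREBBP peak and of 2039 bp at chr19:36704840-36706878 with 1. The third cluster had no region above 1157 bp, the width of the one at chr19:44598105-44599261, and its 3 widest, the third being 772 bp at chr19:44439045-44439816, each held 1 CREBBP peak. In the fourth cluster the widest were 7144 bp at chr19:55764438-55771581, 5643 bp at chr19:56151128-56156770 and 4850 bp at chr19:56185841-56190690, with folds of 4.71, 4.47 and 3.15. Of these, the first and the second held a strong CREBBP peak, meaning here a q of 0.05 or less.

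H3K27ac regions were less dense in the pooled clusters than in the rest of chromosome 19, but not in each cluster. The clusters held 16.5 regions per Mb (14.4 to 18.8) and the rest of chromosome 19 held 19.6 (18.4 to 20.9), a ratio of 0.841 (0.723 to 0.974). The first cluster had 11.1 per Mb, the second 20.6, the third 12.9 and the fourth 19.7. The stretches before and between them had 26.2, 5.79, 22.7 and 22.3. The lowest of these, before the second cluster, includes 3.10 Mb at chr19:24629244-27731915 with no interval in either list, and without them its density was 7.78 (6.06 to 9.83). The ratio of the clusters to the rest was 0.783 (0.674 to 0.908) without those 3.10 Mb, and 0.820 (0.685 to 0.980) against the rest within 2 Mb of a cluster. This nearer rest still counts part of the empty 3.10 Mb as length, which raises the ratio. Without the first cluster the ratio was 0.986 (0.833 to 1.16), and the densities of single clusters and stretches overlapped. All other chromosomes together had 5.76 regions per Mb. Single chromosomes ran from 3.26 to 12.7, on chromosome 17, with a median of 5.65. Their lengths run to the last covered position, and empty stretches were not left out, which lowers these densities. The order of the chromosomes and the place of the clusters among them may depend on that. Counted so, the second and the fourth cluster lay above all of these chromosomes, the third was close to chromosome 17, and the first was below it. H3K27ac covered 2.18% of the clusters, 3.44% of the rest of chromosome 19 and 1.08% of the other chromosomes, with empty stretches counted as length.

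**Figure D2:**
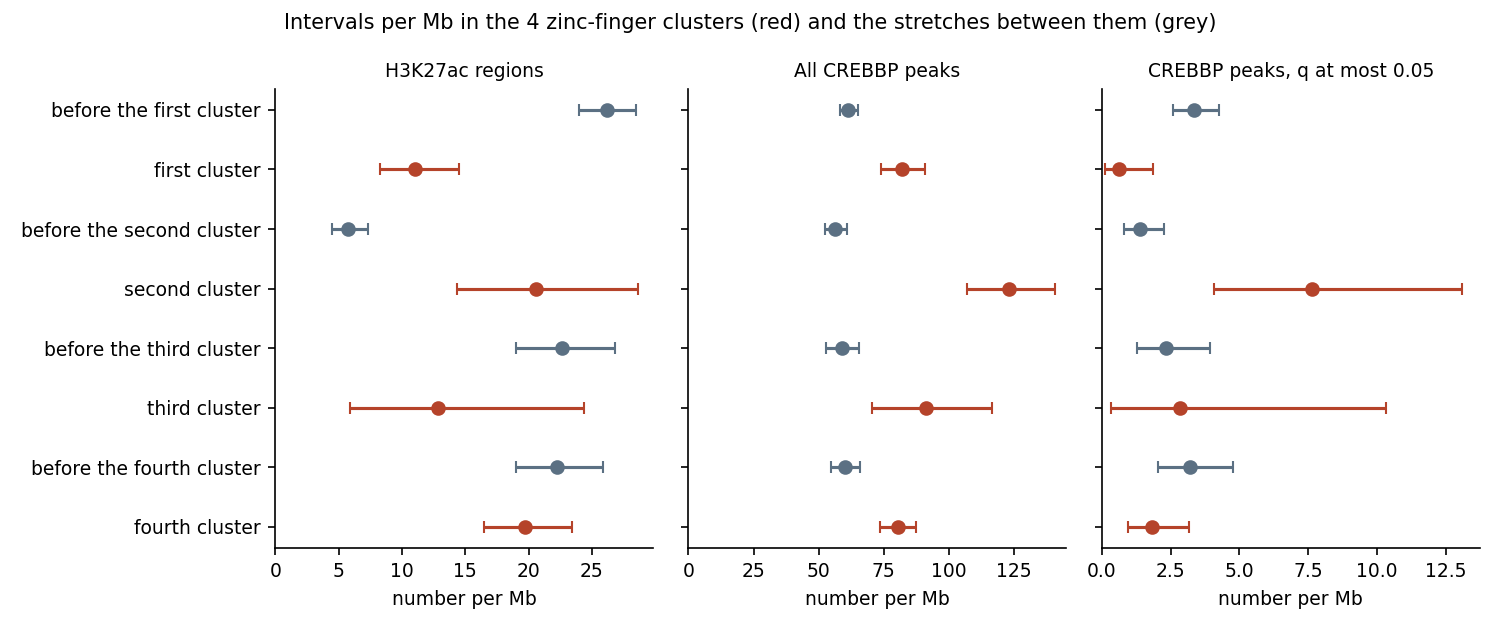
Number per Mb of H3K27ac regions, of all CREBBP peaks and of strong ones (q of 0.05 or less) in the 4 clusters (red) and the stretches before each of them (grey), in their order along chromosome 19, with exact Poisson 95% intervals. The CREBBP densities of the clusters, 80.3 to 123 per Mb, all lie above those of the stretches, 56.4 to 61.5 (75.9 before the second cluster without its empty part, which the plot includes), while the H3K27ac densities overlap.

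Regions in the clusters tended to stand alone. The median gap to the nearest other H3K27ac region was 19.2 kb in the clusters (interquartile range 9.48 to 34.5 kb) and 10.2 kb in the rest (3.96 to 22.4 kb). More than 10 kb from any other region lay 73.9% of the cluster regions (167 of 226, 67.7 to 79.5%) and 50.5% of the others (450 of 891, 47.2 to 53.8%), a difference of 23.4 percentage points (16.5 to 29.6). By cluster these shares were 82.7, 82.9, 77.8 and 67.7%. In the stretches between they were 49.2, 41.9 and 50.3%, and 77.1% in the sparse one before the second cluster, which lies within the range of the clusters. The second and the fourth cluster, with densities of 20.6 and 19.7 per Mb, had larger shares alone than the stretches of 22.3 to 26.2 per Mb. Even so, long stretches had no H3K27ac region. The longest was 1022 kb at chr19:22235832-23257851 in the first cluster, which held 43 CREBBP peaks, none of them strong. It was 595 kb at chr19:57107194-57702653 in the fourth, 191 kb at chr19:44809218-45000000 in the third, where it ended at the boundary, and 161 kb at chr19:37407728-37568587 in the second.

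The share of H3K27ac regions that held a CREBBP peak was not distinguishable between the clusters and the rest. A CREBBP peak overlapped 88 of 226 cluster regions, 38.9% (32.5 to 45.6%), and 373 of 891 others, 41.9% (38.6 to 45.2%). The difference was -2.93 percentage points (-9.86 to 4.31). Over all chromosomes the share was 49.0%, and over the 22 other chromosomes it ran from 44.4 to 54.0%. Chromosome 19 as a whole, at 41.3%, lay below each of these, but the second and the third cluster did not. By cluster the share was 38.5% (20 of 52), 51.4% (18 of 35), 66.7% (6 of 9) and 33.8% (44 of 130). A strong CREBBP peak was found in 15 cluster regions, 6.64% (3.76 to 10.7%), and in 82 others, 9.20% (7.39 to 11.3%), against 11.4% over all chromosomes. The difference, -2.57 percentage points, has an interval of -5.87 to 1.81.

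Wider regions met a CREBBP peak more often on the whole chromosome, and the clusters had fewer wide ones. The regions of chromosome 19 were therefore split into 5 classes of like number by width. Among the narrowest, of 265 to 813 bp, 29.5% of the cluster regions held a CREBBP peak (18 of 61, 18.5 to 42.6%) and 16.6% of the others (27 of 163, 11.2 to 23.2%), a difference of 12.9 percentage points (1.08 to 26.3). It was 1 of 5 classes compared, and its interval is not corrected for that. In the next classes the shares were 31.3 and 27.6%, 42.2 and 36.0%, and 50 and 51.8%. Among the widest, from 2162 bp, they were 65.2 and 69.2%. The intervals of these 4 differences include 0. With the rest weighted to the widths of the cluster regions, its share was 33.7%, and the difference turned to 5.22 percentage points in favour of the clusters, a value without an interval.

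**Figure D3:**
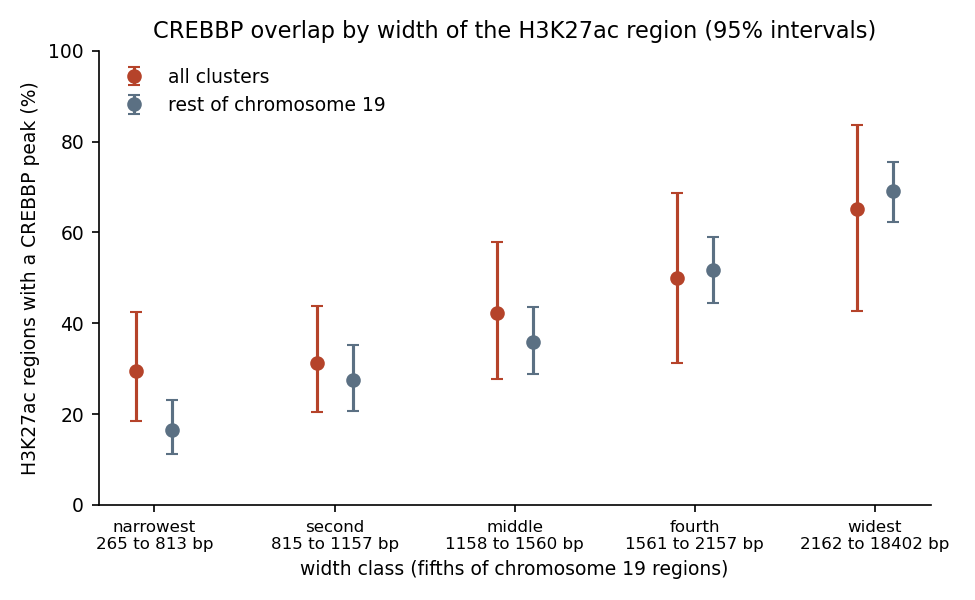
Share of H3K27ac regions that held a CREBBP peak, in 5 width classes of the regions of chromosome 19, for the zinc-finger clusters (red) and the rest of the chromosome (grey), with exact 95% intervals. The share rises with width in both, from 29.5 to 65.2% in the clusters and from 16.6 to 69.2% in the rest, and the intervals of the groups overlap in every class.

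Among cluster regions with a fold of at least 10, 10 of 39 held a CREBBP peak, 25.6% (13.0 to 42.1%), against 52 of 126 in the rest, 41.3% (32.6 to 50.4%). The interval of this difference, -29.7 to 1.86 percentage points, includes 0. Where a region held CREBBP, it was mostly 1 peak. In the clusters 81 regions held 1, 7 held 2 and none held more, and in the rest 313 held 1, 50 held 2 and 10 held 3 or more. The CREBBP summits within cluster regions lay in the central 50% of the region in 57 of 88 cases, 64.8% (53.9 to 74.7%), and in the rest in 275 of 425, 64.7% (59.95 to 69.3%). The 15 cluster regions with a strong CREBBP peak included the region of fold 21.1 at chr19:44668880-44669895, where the CREBBP peak at chr19:44668791-44669668 had a fold of 4.26. They also included regions of low H3K27ac fold, such as 2.08 at chr19:23592407-23592766, where the CREBBP peak at chr19:23592152-23592837 had a fold of 4.07.

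CREBBP peaks were denser in the clusters than in the rest of chromosome 19. The clusters held 86.8 per Mb (81.9 to 91.9) and the rest 59.6 (57.4 to 61.9), a ratio of 1.46 (1.36 to 1.56). Leaving the empty 3.10 Mb out of the rest gave 1.36 (1.27 to 1.45). The clusters had 82.1, 123, 91.4 and 80.3 per Mb, and the 4 stretches before and between them 61.5, 56.4, 59.0 and 60. Without its empty part the stretch before the second cluster had 75.9 (70.3 to 81.8), below the value of each cluster. It lay within the intervals of the first (74.1 to 90.7), the third (70.4 to 117) and the fourth (73.6 to 87.4). Only the interval of the second cluster, 107 to 141, lay above it. The 22 other chromosomes, with empty stretches counted as length, ran from 19.4 to 108 per Mb with a median of 70.6. Of these, 2 were above the pooled value of the clusters, so the pooled density was not outside their range. By cluster, 3 chromosomes were above the first, 0 above the second, 2 above the third and 4 above the fourth. The interval of the second cluster still reached below the highest chromosome. The excess did not extend to strong peaks, of which there were 30 in the clusters, 2.52% of their peaks (1.71 to 3.58%), and 121 in the rest, 4.47% (3.72 to 5.32%), against 1.81% over all chromosomes. Their densities were 2.19 and 2.66 per Mb, a ratio of 0.822 (0.532 to 1.23).

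The excess lay in peaks of few fragments. The number of fragments at a peak's summit and the local background were solved from the authors' fold and p, and both are inferences from these values. Peaks of 3 fragments or fewer were 2.22 times as dense in the clusters as in the rest without its empty 3.10 Mb (1.74 to 2.82), and peaks of 4 were 2.01 times as dense (1.74 to 2.31). The ratio was 1.47 (1.27 to 1.70) at 5 fragments, 1.41 (1.18 to 1.69) at 6 and 0.994 (0.821 to 1.20) at 7 to 9. At 10 to 19 fragments it was 0.658 (0.509 to 0.843), and at 20 or more 0.772 (0.570 to 1.03). None of the 120 cluster peaks of 3 fragments or fewer lay in H3K27ac (upper limit 3.03%) and none of the 330 of 4 fragments (upper limit 1.11%). The same held in the rest, with none of 167 (upper limit 2.18%) and none of 507 (upper limit 0.725%). The peaks inside H3K27ac had lower-quartile backgrounds of 4.72 fragments in the clusters and 6.47 in the rest. Peaks of so few fragments pass the p limit only at a low background, so these zeros cannot show a lack of weak CREBBP signal in H3K27ac. Of the 78 cluster peaks of 10 to 19 fragments 52 lay in H3K27ac, 66.7% (55.1 to 76.9%), against 57.4% (52.1 to 62.5%) in the rest. The background differed in the same direction. Of the cluster peaks 48.8% stood at the commonest background of 1.3 fragments (580 of 1189, 45.9 to 51.7%), and of the others 29.0% (784 of 2705, 27.3 to 30.7%). No solved background on the chromosome lay below this value. It stands as a floor, so local backgrounds under it, if any, cannot be told apart. A peak of few fragments passes a p limit only where the background is low, and the part of the background in the excess was not tested. In the stretch before the second cluster 54.5% of peaks stood at that background, a share within the cluster range of 45.5 to 57.8%, and it also had the CREBBP density nearest to the clusters, 75.9 per Mb without its empty part.

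The excess also depended on the distance from H3K27ac. Inside H3K27ac regions the clusters had 295 CREBBP summits per Mb (236 to 363) and the rest 272 (246 to 299), a ratio of 1.09 (0.852 to 1.37). From the edge to 1 kb the ratio was 1.85 (1.11 to 2.996), from 1 to 5 kb 2.21 (1.59 to 3.05) and from 5 to 20 kb 1.83 (1.61 to 2.07). It was 1.46 (1.26 to 1.68) from 20 to 50 kb and 1.05 (0.925 to 1.20) over 50 kb away. In both groups the summits were sparsest at 1 to 5 kb, with 39.0 per Mb in the clusters and 17.7 in the rest. Far from H3K27ac the clusters and the rest thus had like densities of CREBBP peaks, 76.4 and 72.5 per Mb.

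**Figure D4:**
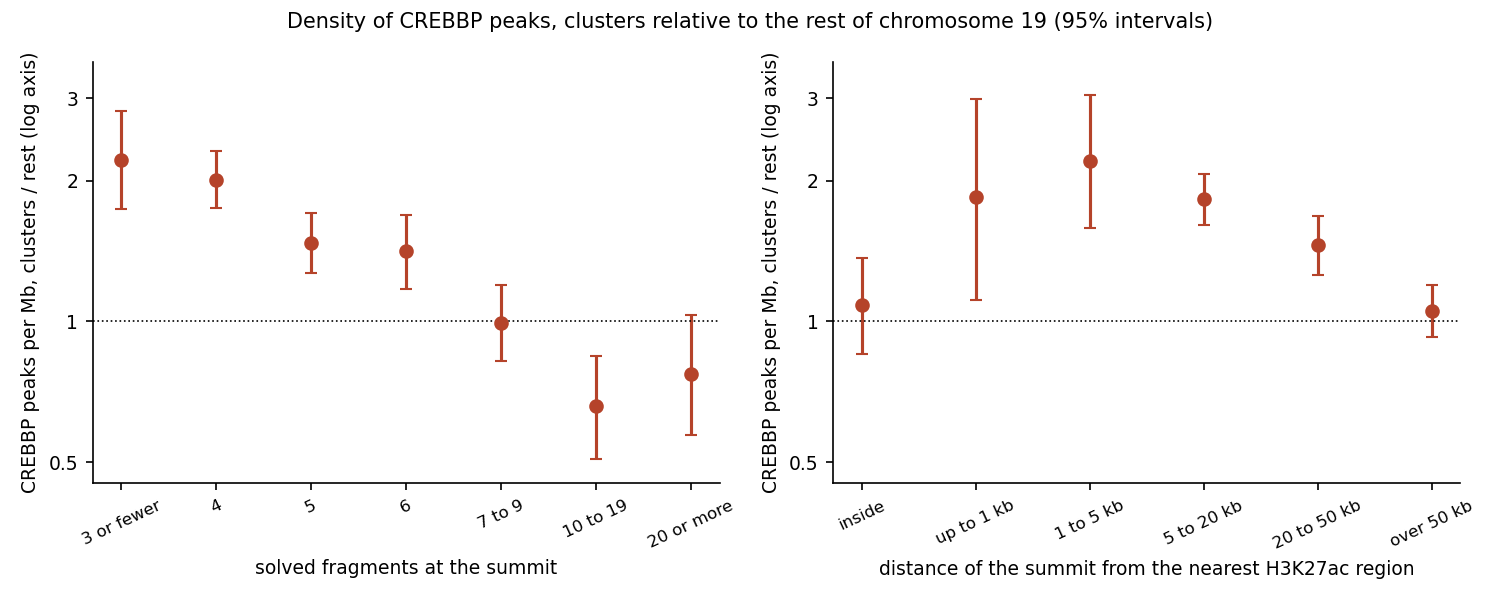
Density of CREBBP peaks in the clusters divided by that in the rest of chromosome 19 without its empty 3.10 Mb, on a log axis with exact 95% intervals, by the solved number of fragments at the summit (left) and by the distance of the summit from the nearest H3K27ac region (right). The ratio falls from 2.22 at 3 fragments or fewer to 0.658 at 10 to 19, and is highest, 2.21, at 1 to 5 kb from a region.

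A smaller share of the cluster peaks lay in H3K27ac. It was 7.99% (95 of 1189, 6.51 to 9.68%) in the clusters and 16.4% (444 of 2706, 15.03 to 17.9%) in the rest, a ratio of 0.487 (0.394 to 0.601), against 5.06% over all chromosomes. The clusters had 5.70, 9.09, 9.38 and 9.06%. The stretches had 21.3, 5.71, 15.8 and 20%, and the sparse one before the second cluster was again within the range of the clusters. Per kb of H3K27ac the clusters held as many CREBBP peaks as the rest within counting error, 0.318 against 0.284, a ratio of 1.12 (0.889 to 1.40). The peaks inside had a median of 17 fragments over a background of 6.47 in the clusters, and of 19 over 9.24 in the rest.

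The cluster peaks of many fragments outside H3K27ac were gathered at 2 places of the second cluster. Of the cluster peaks with 20 or more fragments 30 of 59 lay in H3K27ac, 50.8% (37.5 to 64.1%), against 221 of 236 in the rest, 93.6% (89.7 to 96.4%). Of the 29 outside, 28 were in the second cluster, and all of these lay in a pair of stretches free of H3K27ac. The longer was 115 kb at chr19:36706879-36821940. It held 30 CREBBP peaks, of which 22 had 20 or more fragments, all of them within the 39.4 kb from 36759593 to 36798990. The background there was high, with a median of 12.01 fragments (range 1.3 to 24.9), against a median of 1.3 at the peaks of the clusters outside H3K27ac. The shorter was 65.0 kb at chr19:37743149-37808180, with 13 CREBBP peaks, 6 of them with 20 or more fragments, and a median background of 6.51. Without these stretches 30 of 31 cluster peaks of 20 or more fragments lay in H3K27ac, 96.8% (83.3 to 99.9%). As the stretches are free of H3K27ac, leaving them out could only raise this share. Nothing was left out of the rest, so the 2 shares cannot be compared. The stretches were singled out after their values were seen.

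The same places held most of the strong CREBBP peaks of the clusters that lay outside H3K27ac. In the longer stretch 6 strong peaks stood in a run of 33.6 kb at chr19:36759593-36793223, with folds of 2.57 to 4.22 and 40 to 93 fragments, 28.7 to 54.9 kb from the nearest H3K27ac region. The first of them, at chr19:36759593-36760156, had 93 fragments over a background of 21.2 and a −log10 q of 25.4, the largest in the clusters. The last, at chr19:36791074-36793223, was 2150 bp wide, the widest CREBBP peak of the chromosome. In the shorter stretch 4 such peaks stood within 11.0 kb at chr19:37777804-37788852, with folds of 2.77 to 3.20 and 19 to 24 fragments. In the rest of chromosome 19 there was 1 run of 3 or more such peaks less than 20 kb apart. It held 4 peaks at chr19:27731916-27736547, at the edge of the empty stretch, with backgrounds of 472 to 1186 fragments. Of the 30 strong peaks in the clusters 15 lay in H3K27ac, 50% (31.3 to 68.7%), against 85 of 121 in the rest, 70.2% (61.3 to 78.2%). Without the runs these shares were 15 of 20, 75% (50.9 to 91.3%), and 85 of 117, 72.6% (63.6 to 80.5%). The density of strong peaks in the clusters, relative to the rest, was then 0.567 (0.334 to 0.916). The runs were built only from peaks outside H3K27ac, 10 in the clusters and 4 in the rest. Leaving them out could thus only raise both shares, and the lower density ratio follows from the same choice.

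**Figure D5:**
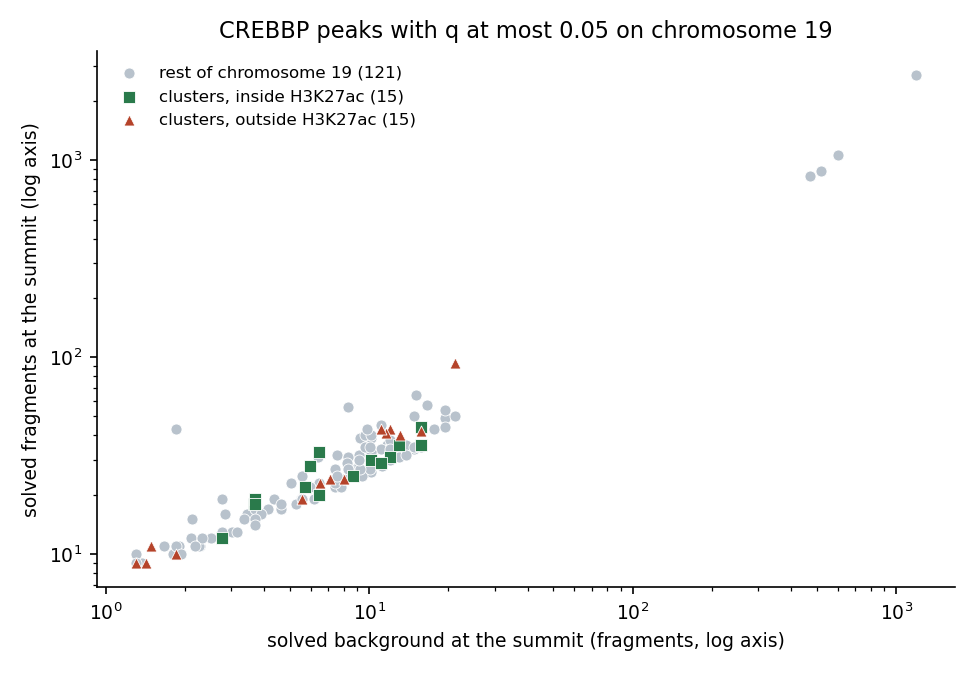
Solved fragments against solved background at the summit, on log axes, of the strong CREBBP peaks (q of 0.05 or less) on chromosome 19, with 15 peaks of the clusters inside H3K27ac (green squares), 15 outside (red triangles) and 121 peaks of the rest (grey). The outside peaks of the clusters fall into those at backgrounds under 2 fragments and those of the runs, at 5.54 to 21.2, and the highest of them has 93 fragments.

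The other strong CREBBP peaks were spread over the clusters. The first cluster had 3, the third 2 and the fourth 12, of which 2, 2 and 9 lay in H3K27ac. Besides the runs, the second cluster had 3. One of these, at chr19:37263377-37264024, lay in H3K27ac with a fold of 4.55 and 33 fragments over a background of 6.47. Another, at chr19:36661519-36661954, had a fold of 4.82 with 11 fragments over a background of 1.49, 29.2 kb from any H3K27ac region. The peak at chr19:52846775-52847420 in the fourth cluster had the same fold, fragments and background, 45.6 kb from any region. These 2 folds were the largest in the clusters, and each rests on 11 fragments. In the fourth cluster the peak at chr19:56652189-56652590, inside H3K27ac, had a fold of 4.17 and a −log10 q of 6.52. The peak at chr19:55770345-55770925 had a −log10 q of 4.61 with 44 fragments and lay in the widest H3K27ac region of that cluster. The first cluster's largest fold was 4.34 at chr19:20721696-20722097, 25.5 kb from H3K27ac, where 9 fragments stood over a background of 1.3. In the third cluster the second fold was 3.55 at chr19:44807903-44808202, with 8 fragments, 0.616 kb from a region and short of the q limit. Its second −log10 q was 3.23, at chr19:44439349-44439790 inside H3K27ac.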

How the data were processed

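The submitters' processing notes list hg19 and, as tools, MACS2, Bowtie2, fastp and STAR. How each was used, its version, the control library and the read depth: not given in the sources used here. The authors deposited narrow CREBBP peaks and broad H3K27ac regions, each with a fold enrichment (a ratio), −log10 p-values and −log10 q-values, and a score that was not used here. The deposited CREBBP list reaches down to a −log10 p of 1.30 and has no limit on q.

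Members and lists were chosen with earlier results of these data known. Densities use each chromosome up to its last covered position, 59118997 on chromosome 19, with empty stretches included unless stated. Overlap means at least 1 bp shared. Shares carry Clopper-Pearson, densities exact Poisson, density ratios exact conditional binomial, differences of shares Newcombe and ratios of shares log-normal (Katz) 95% intervals. Fragments n and background b solve fold = (n + 1)/(b + 1) with p as the upper Poisson tail. They matched −log10 p within 0.001 for 3894 of 3895 chromosome 19 peaks. Named positions are, per cluster, the 3 widest H3K27ac regions, the 2 largest folds of either list, the 2 largest CREBBP −log10 q and the longest H3K27ac-free stretch. Other positions were chosen after their values were seen. Alternatives changed the lists, the overlap, the rest and the clusters included. The overlap, fragment and density-ratio code was tested on simulated data. Python 3.11.15, numpy 2.4.6, pandas 2.3.3, scipy 1.17.1 and matplotlib 3.10.9 were used.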

Additional observations from a re-analysis of the deposited data

How the results depend on the processing

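The narrower median width of the cluster H3K27ac regions kept its direction in all 7 alternatives, between 0.691 and 0.773, and their median fold stayed between 0.880 and 1.04 times that of the rest. The density ratio of H3K27ac regions, 0.841, was 0.986 without the first cluster, 0.689 without the fourth, 0.783 without the empty stretch and 0.820 against the rest within 2 Mb of a cluster. The difference in the share of H3K27ac regions with a CREBBP peak, whose interval includes 0, ran from -5.21 to 5.22 percentage points, and the latter value came from weighting by width. The CREBBP density ratio, 1.46, was 1.36 without the empty stretch and 1.60 against the rest within 2 Mb of a cluster. The rest within 2 Mb counts part of the empty stretch as length, which raises both density ratios taken against it. The 1.60 therefore does not show a larger CREBBP excess against near neighbours. The CREBBP density ratio turned to 0.822 with peaks of q at most 0.05, and to 0.567 when the runs outside H3K27ac were also left out. The ratio of the shares of CREBBP peaks in H3K27ac, 0.487, was 0.712 with peaks of q at most 0.05 and 1.03 without the runs as well. Leaving out the runs was chosen after seeing the data. It removes only peaks outside H3K27ac, and more of them from the clusters than from the rest, so both shifts follow from that choice. Few fragments support most CREBBP peaks, with a median of 5 in the clusters. No paired analysis was possible because there was only 1 library in every group.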
